A study of Mus musculus with 12 samples.

Results

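A set of 10 genes that astrocytes use for their housekeeping work in the healthy brain was followed through 12 RNA-seq libraries of mouse striatum after ischemic stroke. The 10 genes, Slc1a2, Slc1a3, Glul, Slc6a11, Aqp4, Gja1, Gjb6, Aldh1l1, Aldoc and S100b, were taken by symbol from a list grouped by function. That list was chosen with earlier results of these data known. Each symbol matched 1 of the 54532 Ensembl gene IDs of the count files. All 10 passed the filter on low counts, as did 19822 genes in all. The libraries fall into 6 groups of 2, made of 3 genotypes (WT, cGAS-KO and STING-KO) at 7 and 14 days after the stroke. Per the labels all mice were C57BL/6J, the Cgas-deficient and Sting-deficient lines were made with CRISPR-Cas9, and all 12 libraries come from mice with a stroke, so no group shows these genes in uninjured striatum. The labels name no age or sex, do not give the edited bases, and do not say whether the 2 libraries of a group came from separate mice. The p-values therefore measure only the spread between these libraries, which may be technical.

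Astrocytes take up the glutamate and GABA that neurons release, convert glutamate to glutamine, and hand the glutamine back to neurons. They also pass water through channels in the endfeet that wrap blood vessels, share ions and metabolites through gap junctions, and supply neurons with products of glycolysis. After stroke astrocytes near the lesion turn reactive, with more Gfap and Vim and with shifts in these housekeeping genes. In bulk tissue a lower level can mean fewer astrocytes or less RNA per astrocyte, and the 2 cannot be told apart here.

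Several facts of the whole series bear on what follows. Library totals ran from 15956242 to 22126213 counts, and levels are given as CPM, the count scaled to the same TMM-adjusted total in every library. At 7 days Cgas, the DNA sensor gene, was at 3.25 and 2.97 CPM in WT against 5.55 and 5.66 in the libraries labelled cGAS-KO, and at 12.6 and 7.68 against 4.09 and 6.15 CPM at 14 days. Tmem173, which encodes STING, was at 2.8 and 2.71 CPM in WT and 20.9 and 23.8 in the libraries labelled STING-KO at 7 days, and at 22.3 and 20.8 against 2.4 and 5.21 CPM at 14 days. Neither transcript was lower than in WT in its labelled knockout at 7 days, and counts over a whole gene cannot show an edit, so the knockouts are called by their labels. The defining striatal marker Drd1 was at 1.84 to 12.9 CPM in the 7-day libraries and at 33.9 to 376 CPM in the 14-day ones, where the STING-KO libraries held the 2 highest values. Microglial genes, a list of 12, summed to 383 and 336 CPM in 7-day WT and to 6216 to 9061 CPM in the other 7-day libraries. At 14 days they summed to 3485 and 3661 CPM in WT, 2998 and 3136 in cGAS-KO, and 576 and 1269 in STING-KO. Their part in what follows was not tested. A list of 12 general neuronal genes reached 10716 and 11743 CPM in sum in 7-day WT and at most 6183 CPM in the other 10, so the 7-day WT libraries stood apart from the rest in these genes. With 2 libraries in each group, groups that do not overlap are common. Over all genes the share was 80.2% for cGAS-KO and 80.9% for STING-KO against WT at 7 days, and 40.9% and 63.5% at 14 days. Between the labelled knockouts it was 40.9% at 7 days and 65% at 14 days.

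Compared per kilobase of exon, which allows levels of different genes to be set side by side, the 10 genes spanned a wide range. In the 7-day WT libraries Glul, glutamine synthetase, was the most abundant at 473 ± 36.4 CPM per kilobase (SD, n = 2). Aldoc followed at 257 ± 26.9 and Slc1a2 at 159.5 ± 21 CPM per kilobase. Aldh1l1, although widely used to mark astrocytes, was the least abundant at 10.6 ± 0.595 CPM per kilobase. By 14 days the STING-KO libraries had another leader: Slc1a2 was at 322 ± 34.8 and Glul at 298 ± 63.7 CPM per kilobase. That gap was smaller than the spread between the libraries. Within these 2 libraries the ratio of Glul to Slc1a2 was 0.988 and 0.849, against 1.66 to 7 in all others.

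**Figure D1:**
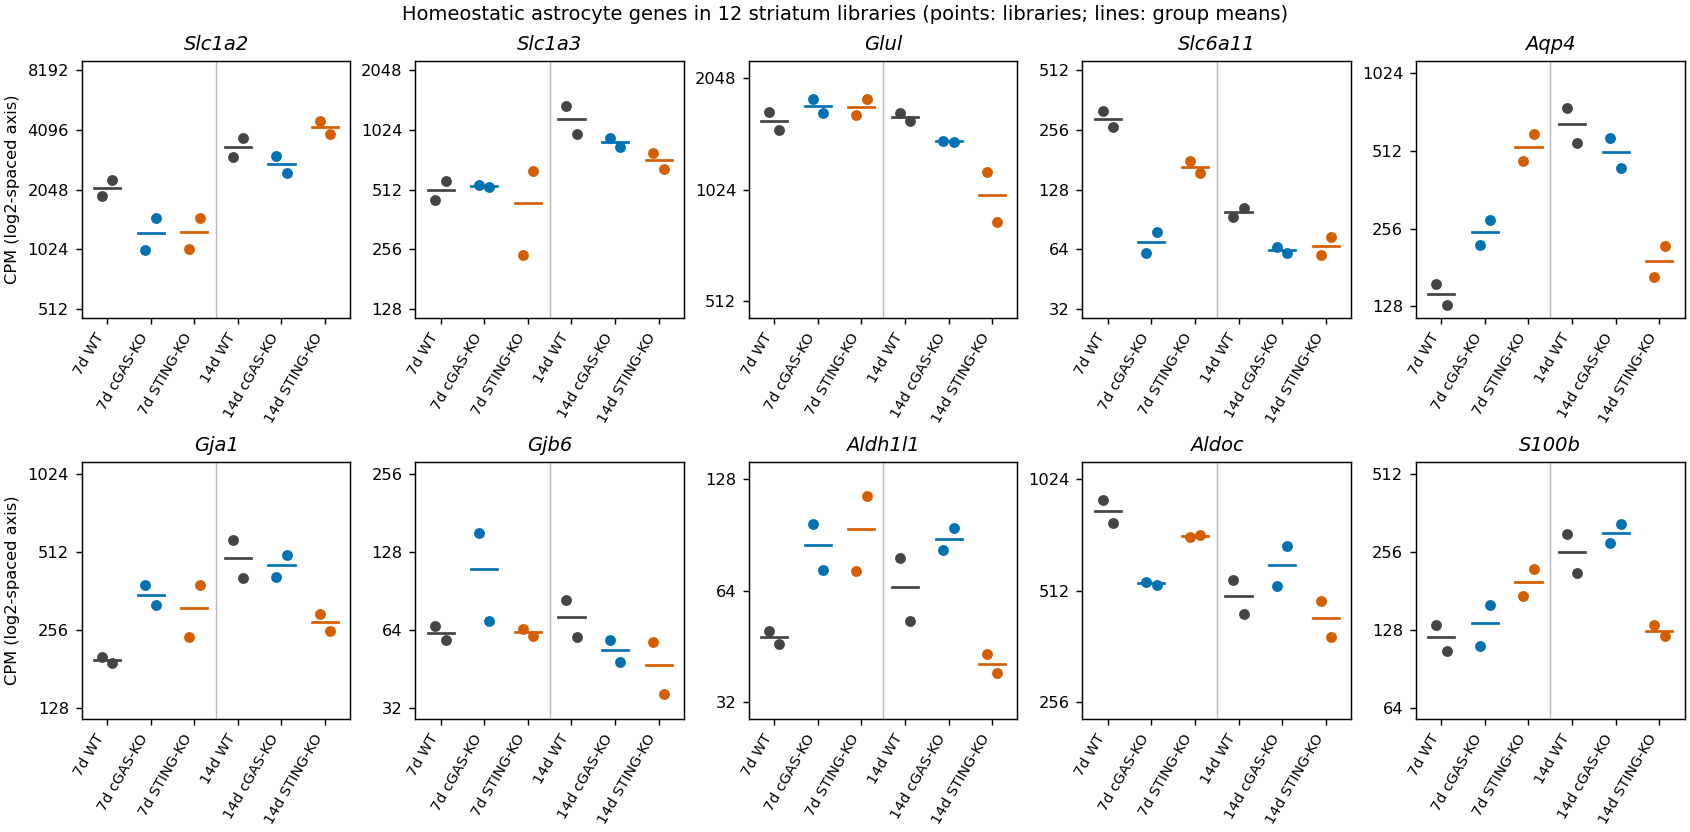
Level of each of the 10 genes in every library, in CPM on a log2-spaced axis that differs between panels; points are libraries, short lines are the means of the 2 libraries of a group, and the grey line parts 7 from 14 days. Slc6a11 is highest in 7-day WT, at 317 and 264 CPM, where Aqp4 and Gja1 are at their lowest.

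Slc1a2 (ENSMUSG00000005089, chr2:102658659-102790784, plus strand) encodes the glutamate transporter GLT-1, the main remover of glutamate at forebrain synapses. Its level was 1899.7 and 2290.2 CPM in WT at 7 days, 1012 and 1469 in cGAS-KO and 1034 and 1479 in STING-KO. At 14 days the gene reached 2996 and 3736 CPM in WT, 3015 and 2495 in cGAS-KO and 4553 and 3907 in STING-KO. The 4 knockout libraries were the lowest at 7 days and the 2 STING-KO libraries the highest at 14 days, while WT and cGAS-KO overlapped at 14 days.

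Slc1a3 (ENSMUSG00000005360, chr15:8634124-8710764, minus strand) encodes GLAST, the second astrocyte glutamate transporter. It was at 453 and 563 CPM in WT, 538 and 529 in cGAS-KO and 239 and 637 in STING-KO at 7 days. The 14-day values were 1349.6 and 974 CPM in WT, 935 and 844 in cGAS-KO and 787 and 653 in STING-KO. Every 14-day library was above every 7-day one, and the lowest value of all came from 1 of 2 STING-KO libraries whose partner was the highest at that age. The ratio of Slc1a2 to Slc1a3, per kilobase, lay between 1.22 and 2.81 in the other 10 libraries and was 3.76 and 3.89 in the 14-day STING-KO libraries.

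Glul (ENSMUSG00000026473, chr1:153899944-153909723, plus strand) turns glutamate and ammonia into glutamine, and oligodendrocytes express it as well. It was the steadiest of the 10 genes, with 1485 to 1798 CPM over the 6 libraries of day 7. Its 14-day values were 1649 and 1566 CPM in WT, 1387 and 1379 in cGAS-KO and 1139 and 839 in STING-KO, with no overlap between the 3 genotypes. For each pair of 14-day groups, 40.9% to 65% of all genes did not overlap.

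Slc6a11 (ENSMUSG00000030307, chr6:114131241-114249952, plus strand) encodes GAT-3, the GABA transporter of astrocytes. At 7 days it was at 317 and 264 CPM in WT, 61.4 and 78.1 in cGAS-KO and 179 and 155 in STING-KO, so the 3 genotypes were fully apart. For each pair of 7-day groups, 40.9% to 80.9% of all genes did not overlap. At 14 days the values were 93 and 104 CPM in WT, 65.7 and 61.5 in cGAS-KO and 60.2 and 73.6 in STING-KO, with both labelled knockouts below WT and overlapping each other.

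Aqp4 (ENSMUSG00000024411, chr18:15389496-15410982, minus strand) encodes the water channel of astrocyte endfeet. It was at 156 and 129.8 CPM in WT at 7 days, 221 and 276 in cGAS-KO and 467 and 592 in STING-KO, again with no overlap. Most genes did not overlap with WT at 7 days. By 14 days the order of WT and STING-KO was the opposite: 747 and 549 CPM in WT, 571 and 437 in cGAS-KO, and 166 and 219 in STING-KO.

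Gja1 (ENSMUSG00000050953, chr10:56377330-56402513, plus strand) encodes connexin 43, the main gap junction protein of astrocytes, and Gjb6 (ENSMUSG00000040055, chr14:57123303-57133611, minus strand) encodes connexin 30, their second one. Gja1 was at 201 and 191 CPM in WT, 379.9 and 319 in cGAS-KO and 240.4 and 381 in STING-KO at 7 days, with WT below both. Gja1 at 14 days was at 568 and 404 CPM in WT, 409 and 499 in cGAS-KO, and 294 and 252 in STING-KO, which alone stood apart. Gjb6 showed no such pattern: the 7-day values were 66.3 and 58.4 CPM in WT, 151 and 69.2 in cGAS-KO and 64.3 and 60.7 in STING-KO. The 14-day Gjb6 values ran from 36.1 to 83.5 CPM, and only 1 of 12 libraries, the first of 7-day cGAS-KO, exceeded 100 CPM. Per kilobase, Gjb6 was above Gja1 in both 7-day WT libraries, where the ratio of Gja1 to Gjb6 was 0.789 and 0.853, and in the first 7-day library of cGAS-KO (0.658) and of STING-KO (0.975). It was below Gja1 in the second of each (1.2 and 1.63) and in all 14-day libraries, at ratios of 1.33 to 2.7.

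Aldh1l1 (ENSMUSG00000030088, chr6:90486427-90600203, plus strand) encodes a folate enzyme that makes tetrahydrofolate from its formyl form. It was at 49.9 and 46.1 CPM in WT, 96.9 and 72.8 in cGAS-KO and 72.5 and 115 in STING-KO at 7 days, and at 78.3 and 52.9, 82.4 and 94.5, and 43.1 and 38.4 CPM in the same order at 14 days. The 7-day WT and the 14-day STING-KO libraries were the 4 lowest of the 12. An antisense transcript, Gm15756, covers 11% of the exon bases of Aldh1l1 but held 14 counts in all 12 libraries against 15718 of Aldh1l1.

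Aldoc (ENSMUSG00000017390, chr11:78322968-78327781, plus strand) encodes aldolase C, the glycolytic aldolase of the brain. Its 7-day values were 901 and 777 CPM in WT, 540.3 and 531 in cGAS-KO and 713 and 724 in STING-KO. The 14-day libraries ran from 385 to 676 CPM with WT overlapping both labelled knockouts, so the 2 highest values were those of 7-day WT.

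S100b (ENSMUSG00000033208, chr10:76253853-76261159, plus strand) encodes a calcium-binding protein of astrocytes that oligodendrocytes express too. At 7 days its values were 134 and 106 CPM in WT, 111 and 159.7 in cGAS-KO and 172 and 219 in STING-KO. S100b at 14 days was at 301 and 211 CPM in WT, 277 and 328 in cGAS-KO and 133 and 121 in STING-KO, which lay within the range of the 7-day WT and cGAS-KO libraries.

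**Figure D2:**
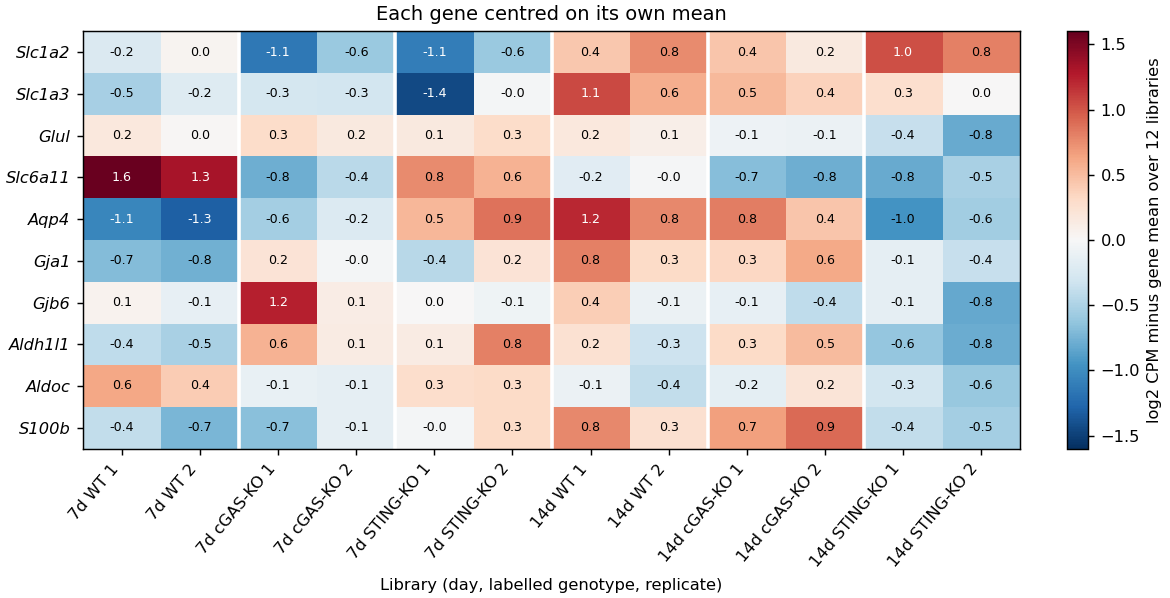
Each gene's log2 CPM minus its own mean over the 12 libraries, by library (columns) and gene (rows); red is above and blue below the gene's mean. No library has all 10 genes above or below their means: the 7-day WT libraries pair high Slc6a11 (1.58 and 1.32) with low Aqp4 (-1.05 and -1.31), and the 14-day STING-KO libraries have 2 genes above their means.

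The 10 genes did not move as 1 block. Over the 45 pairs of genes, Pearson's r of log2 CPM across the 12 libraries ran from -0.68 (Slc1a2 with Glul) to 0.87 (Aqp4 with S100b), with a median of 0.15 and 19 negative values. The 12 points share 6 groups, so these values describe the libraries and are not a test. Aqp4, Gja1 and S100b went together (r of 0.77, 0.79 and 0.87), Slc6a11 went with Aldoc (r of 0.76), Slc1a2 with Slc1a3 (0.71) and Glul with Gjb6 (0.70). Among the 12038 other genes searched, the nearest in pattern to Slc6a11 was Vamp1, a synaptic vesicle gene of neurons (r of 0.967), followed by Bdnf, a neurotrophin gene (0.944), and Nrip2 (0.938). The nearest to S100b were Mobp, a myelin gene (0.947), Dbndd2 (0.947) and Hepacam, an astrocyte adhesion gene (0.945). Slc1a3 was nearest to Gldc (0.949), of the glycine cleavage system, and Ddhd1 (0.935), and Aqp4 to Pdgfa (0.933) and Ccl12 (0.928). Glul was nearest to Slc25a18, a mitochondrial glutamate carrier (0.932), and Gja1 to Prdx6, a peroxiredoxin gene (0.969).

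Promoter sequence is shown for 2 pairs that went together, Gja1 with S100b and Slc6a11 with Aldoc, so that their starts can be compared. Each is the 250 bases before the start of transcription in RefSeq (build GRCm38.p6), read 5′ to 3′ on the gene's strand. Capitals mark a match to 1 of 6 short motifs searched on both strands: TTGGCA (a single arm of the nuclear factor I site), ACAATG (SOX), TTCNNNGAA (STAT), TGANTCA (AP-1), TATAAA (a box found before many start sites) and the full palindrome of nuclear factor I, which contains that arm.

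Gja1, chr10:56377050-56377299, plus strand: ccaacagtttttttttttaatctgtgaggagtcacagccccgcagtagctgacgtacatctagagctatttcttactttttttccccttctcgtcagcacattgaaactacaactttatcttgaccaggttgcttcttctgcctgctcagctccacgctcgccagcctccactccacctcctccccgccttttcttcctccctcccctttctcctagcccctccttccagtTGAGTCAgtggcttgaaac
S100b, chr10:76253586-76253835, plus strand: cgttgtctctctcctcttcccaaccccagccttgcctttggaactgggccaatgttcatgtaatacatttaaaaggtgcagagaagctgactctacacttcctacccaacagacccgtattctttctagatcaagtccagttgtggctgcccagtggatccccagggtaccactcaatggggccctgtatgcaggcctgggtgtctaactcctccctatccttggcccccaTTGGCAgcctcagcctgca
Slc6a11, chr6:114130991-114131240, plus strand: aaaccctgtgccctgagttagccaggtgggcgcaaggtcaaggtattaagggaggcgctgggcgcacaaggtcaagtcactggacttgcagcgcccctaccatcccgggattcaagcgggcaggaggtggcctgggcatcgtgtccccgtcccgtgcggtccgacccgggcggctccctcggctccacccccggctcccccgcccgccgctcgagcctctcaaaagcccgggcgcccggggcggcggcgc
Aldoc, chr11:78322823-78323072, plus strand: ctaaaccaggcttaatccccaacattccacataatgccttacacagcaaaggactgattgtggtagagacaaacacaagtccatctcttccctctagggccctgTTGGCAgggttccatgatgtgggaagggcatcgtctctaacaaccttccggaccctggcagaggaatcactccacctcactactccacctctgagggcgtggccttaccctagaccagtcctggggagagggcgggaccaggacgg

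Neither pair shared a motif. Gja1 had an AP-1 match 19 to 13 bases before its start, and S100b and Aldoc each had the single arm of nuclear factor I, while Slc6a11 held none of the 6 and was 71.2% G and C against a median of 52.4% over all promoters. Among 32851 mouse promoters of the same length, 6.75% held the AP-1 motif, 12.3% the single arm, 10.7% the SOX motif, 7.02% the STAT motif, 12.4% the TATA motif and 0.0365% the full palindrome. Of the 9 genes searched, 2 held the STAT motif (Slc1a3, and Aldoc at its second start) and 1 the TATA motif (Slc1a3). A match is a string of letters, not a site in use.

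At 7 days both labelled knockouts were compared with the same 2 WT libraries, so the 2 comparisons share their controls. Neither targeted transcript was lower in its labelled knockout at that time, and the WT libraries stood apart in general neuronal genes. An effect of cGAS or STING deficiency cannot be told apart from such differences here. In cGAS-KO, 3 of the 10 genes were higher and 3 lower than in WT at an adjusted p below 0.05 (edgeR quasi-likelihood test, Benjamini-Hochberg adjusted over all genes). Of all 19822 genes, 50.3% were called in that comparison, so 6 of 10 is near the background. In STING-KO 4 genes were higher and 2 lower, against a background of 48.9%. The median log2 change of the 10 genes was 0.15 in cGAS-KO and 0.06 in STING-KO, next to 0.04 and 0.03 over all genes.

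The GABA transporter gene Slc6a11 showed the largest fall in both. It was 4.16-fold lower in cGAS-KO (log2 change -2.06 ± 0.17 SE, adjusted p = 2.49e-06) and 1.74-fold lower in STING-KO (-0.80 ± 0.17, adjusted p = 0.00199). Only 4.78% of all genes had a lower log2 change in cGAS-KO, against 21.8% in STING-KO. Slc1a2 was lower as well, by a log2 change of -0.76 ± 0.25 in cGAS-KO (adjusted p = 0.0244) and -0.74 ± 0.25 in STING-KO (adjusted p = 0.0281). Aldoc was lower in cGAS-KO (-0.65 ± 0.18, adjusted p = 0.0113), with a STING-KO value of -0.22 ± 0.18 that did not pass (adjusted p = 0.332).

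The water channel and connexin 43 genes went the other way. Aqp4 was 3.7-fold higher in STING-KO (1.89 ± 0.23, adjusted p = 3.89e-05) and 1.74-fold higher in cGAS-KO (0.80 ± 0.23, adjusted p = 0.011). Gja1 was higher by 0.84 ± 0.23 in cGAS-KO (adjusted p = 0.0101) and by 0.66 ± 0.23 in STING-KO (adjusted p = 0.0318). Aldh1l1 was higher by 0.82 ± 0.24 (adjusted p = 0.0137) and 0.97 ± 0.24 (adjusted p = 0.00566). S100b was higher in STING-KO (0.71 ± 0.23, adjusted p = 0.0212), and its cGAS-KO value was 0.17 ± 0.22 (adjusted p = 0.547). Slc1a3, Glul and Gjb6 passed in neither comparison. Gjb6 was at 0.82 ± 0.32 (adjusted p = 0.0555) in cGAS-KO, and without the second cGAS-KO library, the lower one, at 1.26 (0.00253). Slc1a3 was at -0.21 ± 0.35 in STING-KO, and without the second STING-KO library at -1.08 (adjusted p = 0.00668).

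**Figure D3:**
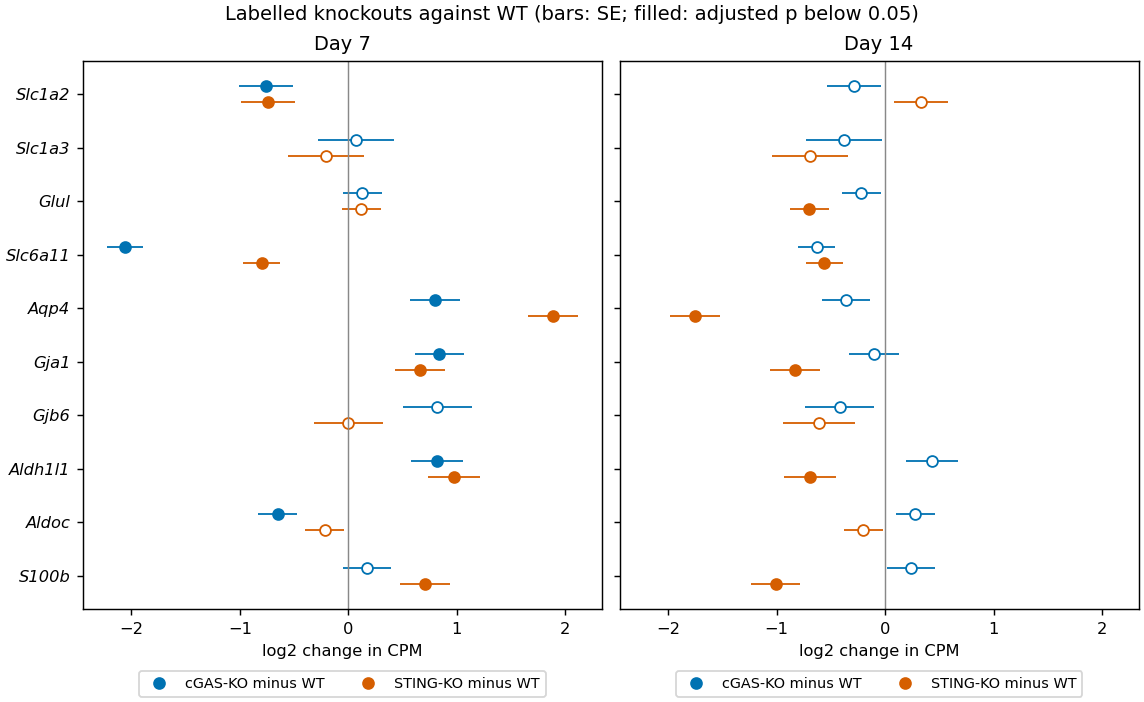
Log2 change of each gene in the labelled knockouts against WT at 7 days (left) and 14 days (right); points are estimates, bars are SE, and filled points have an adjusted p below 0.05. Aqp4 in STING-KO lies at 1.89 on day 7 and at -1.75 on day 14.

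Of these 12 calls, 3 passed whichever of the 4 libraries compared was left out: Slc6a11 in both comparisons and Aqp4 in STING-KO. Without the second 7-day WT library, 2 of the 6 calls of each comparison were left: Slc1a2 (adjusted p of 0.121 in cGAS-KO and 0.135 in STING-KO), Gja1 (0.084 and 0.172) and Aldh1l1 (0.107 and 0.0584) were lost in both, Aqp4 in cGAS-KO (0.134) and S100b in STING-KO (0.212). In cGAS-KO 3 calls were left without the first WT library, which ended Gja1 (0.0549), Aldh1l1 (0.0589) and Aldoc (0.0646), and 3 without the first cGAS-KO library, which ended Slc1a2 (0.186), Gja1 (0.0718) and Aldh1l1 (0.12); Aqp4 was lost without the second (0.0889). In STING-KO the second library carried Gja1 (0.36 without it), Aldh1l1 (0.0801) and S100b (0.15), the first carried Slc1a2 (0.132), and Gja1 was lost without the first WT library (0.115). Scaled to 36 other astrocyte identity genes instead of to all genes, an alternative added after seeing the data, cGAS-KO had 4 of the 10 genes higher and 1 lower: Slc1a2 (-0.59, adjusted p = 0.0854) and Aldoc (-0.47, 0.0961) were lost and Gjb6 (1.01, 0.021) was gained.

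Other genes of each pathway are given next, to be read against the 50.3% and 48.9% of all genes called in these comparisons. Among 23 other genes of glutamate and GABA handling, 6 were higher and 14 lower in cGAS-KO and 3 higher and 13 lower in STING-KO, and among those with the smallest adjusted p were Gad1, which makes GABA (-2.38 ± 0.20 and -1.79 ± 0.19), and Got1, a transaminase of glutamate and aspartate (-1.75 ± 0.15 and -1.32 ± 0.15). All 12 general neuronal genes were lower in both comparisons. Of 10 genes of thalamic neurons 8 were lower in both, and the list summed to 850.3 and 682 CPM in WT, 321 and 298 in cGAS-KO and 418 and 426 in STING-KO, the same order of groups as Slc6a11; Shox2, a thalamic marker, was at 30.4 and 23.6, 0.362 and 0.309, and 19.5 and 9.75 CPM. Their part in the Slc6a11 values was not tested.

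Among 13 other water channel and endfoot genes 4 were higher and 3 lower in cGAS-KO and 5 and 3 in STING-KO, shares near those of all genes. Those with the smallest adjusted p included the cation channel gene Trpv4 (3.67 ± 0.31 and 3.29 ± 0.31) and Aqp1, the water channel of choroid plexus (4.64 ± 0.63 and 4.50 ± 0.63). Choroid plexus genes were higher too, 10 of 10 and 9 of 10, summing to 148 and 85.6 CPM in WT against 2585 to 4652 CPM in the 4 knockout libraries. Of 11 other gap junction genes 8 were higher and 2 lower in cGAS-KO and 7 and 2 in STING-KO. Gjb2, connexin 26 of leptomeninges, was higher by 3.99 ± 0.26 and 1.92 ± 0.25, and the leptomeningeal list of 11 genes, with 11 and 9 higher, was at 132 and 101 CPM in WT, 5189 and 3163 in cGAS-KO and 2210.5 and 1776 in STING-KO. Whether such tissue adds to the Aqp4 and Gja1 values was not tested.

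Of 20 other glycolysis and lactate genes, the pathway of Aldoc, 11 were lower and 5 higher in cGAS-KO and 9 lower and 6 higher in STING-KO. Eno2, the neuronal enolase, fell by 1.98 and 1.52 on the log2 scale, while Hk2, the inducible hexokinase, was higher by 2.82 ± 0.28 and 3.14 ± 0.28. Around Aldh1l1, 6 and 7 of 12 other folate genes were higher and none lower, among them Tyms, thymidylate synthase of dividing cells (2.11 ± 0.23 and 2.18 ± 0.23). Around S100b, 11 and 10 of 11 genes, other S100 genes and their receptor gene Ager, were higher, such as S100a11 (5.31 ± 0.47 and 4.81 ± 0.47).

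Reactive astrocyte genes and other identity genes of astrocytes are set beside the 10 genes here. Of 30 reactive genes, 28 were higher and 1 lower in cGAS-KO (median log2 change 3.17) and 27 and 1 in STING-KO (3.06). Gfap rose with them, from 519 and 339 CPM in WT to between 2533 and 5339.6 CPM in the 4 knockout libraries. Of 36 other identity genes, 6 were higher and 10 lower in cGAS-KO (median -0.17) and 7 higher and 4 lower in STING-KO (0.02). Agt, angiotensinogen of astrocytes, was among those lower in cGAS-KO (-2.03 ± 0.36), and Sox9, an astrocyte transcription factor, among those higher in STING-KO (0.91 ± 0.24). The difference between the lists was not tested.

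At 14 days the 2 labelled knockouts parted. None of the 10 genes passed between cGAS-KO and WT with edgeR or with DESeq2, and 1, Slc6a11, had an unadjusted p below 0.05. Few genes passed anywhere in that comparison, 0.0303% of those tested (6 genes, and 2185 with an unadjusted p below 0.05). Slc6a11 was at a log2 change of -0.63 ± 0.17 (adjusted p = 0.254 in edgeR), with a 95% interval of -1 to -0.26. The other 9 estimates lay between -0.42 (Gjb6) and 0.43 (Aldh1l1), and their intervals were wide. That of Slc1a2, -0.83 to 0.25, still holds its 7-day value of -0.76, while that of Aqp4, -0.85 to 0.12, ends below its 7-day value of 0.80.

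In STING-KO 6 of the 10 genes were lower than in WT and none higher at 14 days, against 33.9% of all genes called and 17.4% called as lower. Aqp4 was 3.36-fold lower (-1.75 ± 0.23, adjusted p = 0.000241) and S100b 2.01-fold lower (-1.01 ± 0.23, adjusted p = 0.0053). Gja1 (-0.83 ± 0.23, adjusted p = 0.0165), Glul (-0.70 ± 0.18, adjusted p = 0.012), Aldh1l1 (-0.69 ± 0.24, adjusted p = 0.047) and Slc6a11 (-0.56 ± 0.17, adjusted p = 0.0252) were the others. Slc1a2 did not join them, at 0.33 ± 0.25 (adjusted p = 0.332), and Slc1a3, Gjb6 and Aldoc were at -0.69 ± 0.35, -0.61 ± 0.33 and -0.20 ± 0.18, none past the threshold. The median of the 10 genes was -0.69, next to -0.03 over all genes.

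Only Aqp4 still passed when the first 14-day WT library was left out, the one with the higher Aqp4, Gja1, Aldh1l1 and S100b (adjusted p of 0.138 for Gja1, 0.0512 for Glul, 0.335 for Aldh1l1, 0.056 for Slc6a11 and 0.0583 for S100b). Slc6a11 was also lost without the second WT library (0.128) or the first STING-KO library (0.142), Aldh1l1 without either STING-KO library (0.111 and 0.149) and Gja1 without the second (0.0694). Glul, Aldh1l1 and Slc6a11 were lost when the fit held just the 4 libraries compared (0.0661, 0.0678 and 0.0833). With scaling to the 36 other identity genes, which moved the median of all genes to 0.43, Aqp4 alone was lower and Slc1a2 was higher (0.78, adjusted p = 0.0299), while Slc6a11 was at -0.09, Aldh1l1 at -0.20, Glul at -0.24, Gja1 at -0.34 and S100b at -0.52.

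Other lists in the same comparison are read against the 33.9% of all genes called. By direction, 17.4% of all genes were called lower and 16.5% higher, with a median log2 change of -0.03. Of 36 identity genes 12 were lower, 3 higher and 21 did not pass (median -0.48). The share called in total was not far from that of all genes, but most of these calls were lower. The glutamate carrier gene Slc25a18 was among the lower ones (-2.29 ± 0.21), and Slc4a4, a bicarbonate transporter gene, was higher (0.94 ± 0.18). Of 30 reactive genes 23 were lower and none higher (median -2.46), and Gfap was at 288 and 741 CPM against 5018 and 2279.8 in WT. Of 13 endfoot genes 6 were lower, among them Hepacam, the adhesion gene (-0.84 ± 0.21), its membrane partner Mlc1 (-1.18 ± 0.31) and Trpv4 (-1.06 ± 0.33). Of 11 gap junction genes 3 were lower, 1 was higher and 7 did not pass, again a share near that of all genes, with Gjb2 at -1.09 ± 0.25. The oligodendrocyte list summed to 21656 and 20738 CPM in WT and 8749 and 9015 in STING-KO, with 7 of 10 genes lower, beside the lower S100b and Glul; its part in them was not tested. The striatal projection neuron list went up, with 12 of 12 genes higher and sums of 1372 and 1141 CPM in WT against 7849.7 and 8954 in STING-KO, beside the Slc1a2 values; its part was not tested either.

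**Figure D4:**
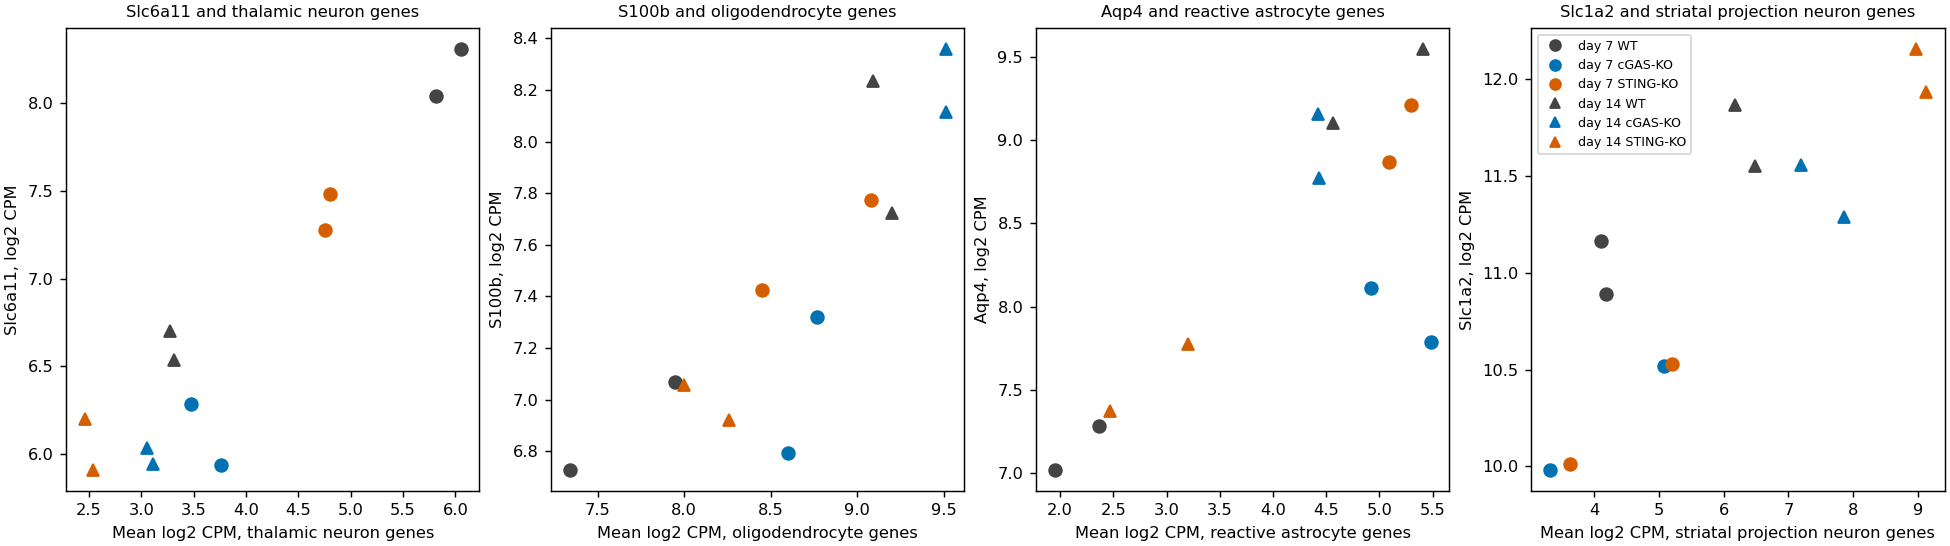
Level of 4 of the genes against the mean log2 CPM of a marker list in the same library, 12 points in each panel, with circles for 7 days and triangles for 14 days. Slc6a11 is highest where thalamic neuron genes are highest (6.05 and 5.81 in the 7-day WT libraries), and Slc1a2 is highest where striatal projection neuron genes are highest (8.97 and 9.12 in 14-day STING-KO). Other libraries go otherwise. The striatal list is at 4.19 and 4.1 in 7-day WT. It is at 5.08 and 5.21 in the second 7-day cGAS-KO and STING-KO libraries, which have less Slc1a2. The thalamic list is at 3.76 and 3.47 in 7-day cGAS-KO and at 3.31 and 3.27 in 14-day WT, which has more Slc6a11.

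Set against each other at 7 days, the labelled knockouts differed in 1 of the 10 genes, with 0.161% of all genes called. Slc6a11 was 2.4-fold lower in cGAS-KO than in STING-KO (-1.26 ± 0.17, adjusted p = 0.032). Aqp4 was at -1.09 ± 0.23 with an adjusted p of 0.103 in edgeR and 0.00222 in DESeq2. Its libraries did not overlap, nor did those of 40.9% of all genes. The Slc6a11 call was lost without the first cGAS-KO library (adjusted p = 0.332) or the first STING-KO library (0.105), in a fit of the 4 libraries alone (0.168), and with scaling to the identity genes (0.0899). Of the other lists, Agt among the identity genes (-2.70 ± 0.36, adjusted p = 0.032) and Gjb2 among the junction genes (2.07 ± 0.23, adjusted p = 0.00645) also passed, as did 1 of 10 thalamic neuron genes (lower) and 2 of 5 erythrocyte genes (higher). Gjb6, at 0.81 ± 0.32, had an adjusted p of 0.459, and of 0.0469 without the second cGAS-KO library.

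At 14 days 4 of the 10 genes were higher in cGAS-KO than in STING-KO and none lower, with 35.9% of all genes called. These were Aqp4 (1.39 ± 0.23, adjusted p = 0.000976), S100b (1.25 ± 0.23, adjusted p = 0.00166), Aldh1l1 (1.12 ± 0.24, adjusted p = 0.00453) and Gja1 (0.73 ± 0.23, adjusted p = 0.0276). The first 3 passed without any 1 of the 4 libraries, and Gja1 was lost without the second cGAS-KO library (adjusted p = 0.159) or either STING-KO library (0.0589 and 0.107). Slc1a2 stood at -0.62 ± 0.25 (adjusted p = 0.0721), and Glul and Aldoc both at 0.48 ± 0.18 (adjusted p of 0.0579 and 0.0619). DESeq2 called these 3 as well, 7 genes in all, and edgeR with no filter called Glul (0.0179) and Aldoc (0.0337), 6 in all. With scaling to the identity genes 3 were higher and 1 lower: Gja1 was at 0.38 (adjusted p = 0.18) and Slc1a2 was called lower (-0.97, 0.0113). The identity list had 13 genes higher and 4 lower, and the reactive list 20 higher and none lower.

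Time after the stroke was compared within each genotype. In WT 5 genes rose from 7 to 14 days and 2 fell, with 43.9% of all genes called. Aqp4 rose 4.53-fold (2.18 ± 0.23, adjusted p = 2.93e-05), Gja1 2.48-fold (1.31 ± 0.23, adjusted p = 0.000873), Slc1a3 2.29-fold (1.19 ± 0.35, adjusted p = 0.0184), S100b 2.13-fold (1.09 ± 0.23, adjusted p = 0.00226) and Slc1a2 1.61-fold (0.68 ± 0.25, adjusted p = 0.0428). Slc6a11 fell by 1.56 on the log2 scale (SE 0.17, adjusted p = 3.44e-05) and Aldoc by 0.76 (SE 0.18, adjusted p = 0.00567). The Slc1a2 call was lost without any 1 of the 4 libraries (adjusted p of 0.066 to 0.331), and the Slc1a3 call without either 7-day WT library (0.124 and 0.0629) or the first 14-day one (0.131). Slc1a2 was also lost with DESeq2's size factors (0.0571), a stricter filter (0.0583) and scaling to the identity genes (0.22, adjusted p = 0.521), and Slc1a3 with no filter (0.106) and with that scaling (0.70, 0.0572). Among the other lists 16 of 36 identity genes rose and 1, Agt, fell (-3.35 ± 0.39), 25 of 30 reactive genes rose and 2 fell, 9 of 10 oligodendrocyte genes rose and 9 of 10 thalamic neuron genes fell. General neuronal genes summed to 10716 and 11743 CPM in 7-day WT and 3403 and 4673 in 14-day WT. Microglial genes summed to 383 and 336 CPM, then 3485 and 3661. Time after the stroke and such differences in tissue content cannot be told apart here.

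In cGAS-KO 3 genes rose and 1 fell, with 30.4% of all genes called. This balance turned with scaling to the identity genes, to 1 higher and 3 lower: Slc1a2 (0.62, adjusted p = 0.0761) and Aqp4 (0.49, 0.108) were lost, and Glul (-0.85, 0.00787) and Slc6a11 (-0.67, 0.0385) were called lower. S100b (1.16 ± 0.23, adjusted p = 0.00291), Slc1a2 (1.15 ± 0.25, adjusted p = 0.00542) and Aqp4 (1.02 ± 0.23, adjusted p = 0.00582) rose. Gjb6 fell by 1.04 (SE 0.32, adjusted p = 0.033), from the 1 high library at 7 days: without it the value was -0.39 (adjusted p = 0.36), and of the 4 calls only S100b was left, with Slc1a2 at an adjusted p of 0.0704 and Aqp4 at 0.0695. The calls of Aqp4 (adjusted p = 0.0602) and Gjb6 (0.0862) were also lost without the first 14-day cGAS-KO library, and that of Gjb6 without the second (0.147), with no filter (0.0889) and with only the 4 libraries compared (0.0738), where Slc1a3 was called higher (0.00967). Slc6a11, already low at 7 days, was at -0.13 ± 0.17. The identity list had 17 genes higher at 14 days and 1 lower, and the reactive list 9 lower and none higher.

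In STING-KO the direction was mostly the other: 1 gene rose and 6 fell, with 56.9% of all genes called. Slc1a2 rose 3.37-fold (1.75 ± 0.26, adjusted p = 0.00012). Aqp4 fell by 1.46 (SE 0.23, adjusted p = 0.000201), Slc6a11 by 1.32 (SE 0.17, adjusted p = 5.12e-05) and Aldh1l1 by 1.20 (SE 0.24, adjusted p = 0.00127). Glul fell by 0.79 (adjusted p = 0.00311), Aldoc by 0.73 (adjusted p = 0.00497) and S100b by 0.62 (adjusted p = 0.0332), the last of which was lost without the second 7-day library (adjusted p = 0.203) or either 14-day one (0.0714 and 0.123). Slc1a3 was at 0.72 ± 0.35 (adjusted p = 0.104), and without the second 7-day library at 1.59 (0.000624). Of the identity genes 11 rose and 8 fell, and of the reactive genes 25 fell and none rose. Striatal projection neuron genes rose, 12 of 12 in STING-KO, 11 of 12 in cGAS-KO and 10 of 12 in WT, beside Slc1a2, which rose in each genotype with TMM scaling and only in STING-KO with scaling to the identity genes; the part of this change in cell content was not tested.

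**Figure D5:**
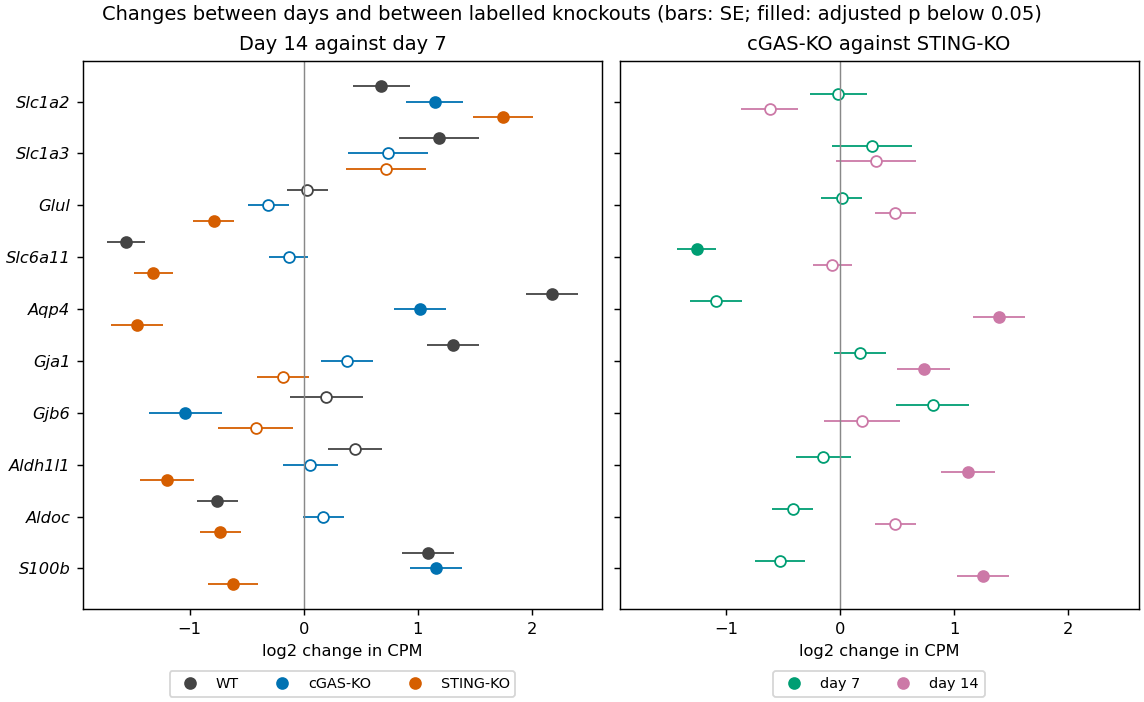
Log2 change of each gene from 7 to 14 days within each genotype (left) and between the labelled knockouts at each time (right); points are estimates, bars are SE, and filled points have an adjusted p below 0.05. Aqp4 rises by 2.18 in WT and 1.02 in cGAS-KO and falls by 1.46 in STING-KO, while Slc1a2 is above 0 in all 3.

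Whether the difference between a labelled knockout and WT changed between the 2 times was tested as an interaction. For STING-KO 6 of the 10 genes passed, with 51.9% of all genes called. Aqp4 had the largest shift of the 10, from higher to lower than WT (-3.64 ± 0.33, adjusted p = 2.8e-06), and only 3 of the others, S100b (-1.71 ± 0.32, adjusted p = 0.000775), Aldh1l1 (-1.65 ± 0.34, adjusted p = 0.00162) and Gja1 (-1.49 ± 0.33, adjusted p = 0.00232), kept their calls whichever of the 8 libraries was left out. Glul (-0.82 ± 0.26, adjusted p = 0.0185) and Slc1a2 (1.07 ± 0.35, adjusted p = 0.0236) each lost theirs in 4 of the 8: without the second 7-day WT library (0.0918 and 0.0798) or the first 14-day WT library (0.054 and 0.0731), Glul also without the second 7-day STING-KO (0.0612) or second 14-day WT library (0.0528), and Slc1a2 also without the first STING-KO library of either day (0.0681 and 0.0551). With scaling to the identity genes Glul was at -0.29 (adjusted p = 0.467). Slc1a2 was the 1 gene of the 6 whose effect went up, from below WT to a value not distinguished from WT.

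For cGAS-KO 4 genes passed, with 36.7% of all genes called. The gap of Slc6a11 to WT shrank (1.43 ± 0.24, adjusted p = 0.00067). Aldoc (0.93 ± 0.26, adjusted p = 0.0146) went from lower than WT to not distinguished from it, at 0.28 ± 0.18 on day 14. Aqp4 (-1.16 ± 0.32, adjusted p = 0.013) and Gja1 (-0.93 ± 0.33, adjusted p = 0.0417) went from higher than WT to not distinguished from it. Slc6a11 alone kept its call whichever library was left out. Aldoc lost its call without the first 7-day WT (0.0519) or the second 14-day cGAS-KO library (0.0652), Aqp4 without the second 7-day WT (0.0802), second 7-day cGAS-KO (0.0513), first 14-day WT (0.0769) or second 14-day cGAS-KO library (0.058), and Gja1 in 6 of the 8 (0.0521 to 0.195, all but the second 7-day cGAS-KO and second 14-day WT libraries). All 4 shifts use the 7-day WT libraries, which hold the highest Slc6a11 and Aldoc and the lowest Aqp4 and Gja1 of the series. When both the 7-day WT and the 14-day STING-KO libraries were kept out of the fit, an alternative added after seeing the data, the comparisons that need neither kept their calls: none of the 10 genes between cGAS-KO and WT at 14 days, 1 between the labelled knockouts at 7 days, and 4 over time in cGAS-KO.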

How the data were processed

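RNA was measured by polyA+ RNA-seq in 12 striatum libraries. The values are raw counts per gene, deposited by the authors in 1 table per library; reads were processed with HISAT2 and featureCounts on mm10, per the submitters' processing notes. Which annotation and which strand setting the counting used, and the versions of these tools, are not given in the sources used here, so reads of antisense neighbours cannot be assigned. Symbols came from GENCODE M21 (54495 of 54532 IDs) and promoters from RefSeq on GRCm38.p6, where 9 of 9 genes searched were matched.

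The test was the robust quasi-likelihood test of edgeR 4.0.16 under R 4.3.3 (TMM scaling, filterByExpr with a minimum count of 10 and a minimum total of 15). All 12 libraries entered 1 fit of 6 groups, which leaves 6 residual degrees of freedom. Benjamini-Hochberg adjustment ran over all 19822 genes in each of 11 contrasts, with a threshold of 0.05. CPM was computed with the TMM-scaled library total, and 3 counts correspond to 0.133 to 0.195 CPM; the lowest count of any of the 10 genes was 555. Correlations and neighbours used log2 CPM with a prior count of 2, over genes with an average log2 CPM of at least 3. The 2 libraries of each group differed beyond sampling noise (chi-square over degrees of freedom of 7.76 to 48.6).

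The same fit was run on simulated counts with 200 known changes between 14-day cGAS-KO and WT, in genes of at least 30 CPM. It recovered 97% of the 4-fold changes but only 55% of the 2-fold ones, and 8 of its 160 calls were false. The real comparison called 6 genes, so its adjusted threshold was stricter than that of a simulation with 160 calls. The simulated shares therefore do not give the recovery in the real comparison. The reactive genes Steap4 (log2 change -3.92 ± 0.71, adjusted p = 0.109 in edgeR) and Lcn2 (-5.39 ± 1.07, 0.148) did not pass there. Changes of 2-fold or less, and larger ones, could thus be missed in that comparison.

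The 10 genes and the lists were chosen with earlier results of these data known. Named were the 10 genes, Cgas and Tmem173, from each other list up to 4 genes with the smallest adjusted p (2 as values where none passed), and the non-members with the highest correlation to each gene. Some genes that this rule names are not reported here. Drd1, Gfap and Shox2 were named outside this rule after their values were seen. Alternatives were DESeq2 1.42.0, its size factors in edgeR, no filter, a stricter filter, a replicate block, a legacy fit, only the libraries compared, and each library left out. After seeing the data 2 more were added: scaling to 36 other astrocyte identity genes, and a fit of the 8 libraries left when 7-day WT and 14-day STING-KO are omitted.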

Additional observations from a re-analysis of the deposited data

Results flagged for a closer look

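The effect of a labelled knockout against WT differed between 7 and 14 days in 10 of the 20 tests made over the 10 genes (edgeR interaction term, adjusted p below 0.05), where 36.7% of all genes passed for cGAS-KO and 51.9% for STING-KO. For cGAS-KO the log2 difference, the 14-day effect minus the 7-day effect, was -1.16 for Aqp4, -0.93 for Gja1, 0.93 for Aldoc and 1.43 for Slc6a11. For STING-KO it was -3.64 for Aqp4, -1.71 for S100b, -1.65 for Aldh1l1, -1.49 for Gja1, -0.82 for Glul and 1.07 for Slc1a2. All 10 values use the 7-day WT libraries, whose general neuronal genes summed to 10716 and 11743 CPM, above every other library; the part of this difference was not tested.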

How the results depend on the processing

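No value called for any of the 10 genes changed sign under any alternative. Of 770 values under other settings of the same fit or under DESeq2, 733 kept direction and side of the threshold. That figure leaves out the least stable alternatives. With scaling to the identity genes 75 of 110 values kept direction and side of the threshold. With 1 library left out 36 of 520 changed sign, a count that leaves out calls lost or gained without a change of sign. Calls lost with 1 library left out are given with each comparison. Scaled to the identity genes, the median of all genes moved to 0.21 (cGAS-KO) and -0.05 (STING-KO) at 7 days, 0.43 for STING-KO at 14 days, -0.40 in WT and -0.54 in cGAS-KO over time, 0.25 and -0.31 between the labelled knockouts at 7 and 14 days, and 0.51 in the STING-KO interaction. No count of the 10 genes was under 555. Causes were not tested.

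Deviations from the group means of same-numbered libraries gave correlations of -0.09 to 0.20 over 15 pairs of groups, 2 of them over 0.1. Same-numbered libraries were therefore not treated as pairs in the reported fit. Low values cannot exclude that some of them were handled together. With the replicate number as a block 104 of 110 values were kept; Gjb6 passed at 7 days in cGAS-KO (adjusted p = 0.0152), at 14 days in STING-KO (0.0492) and in the cGAS-KO interaction (0.0133), Glul passed between the labelled knockouts at 14 days (0.0479), and Aldh1l1 in STING-KO at 14 days (0.0584) and Gja1 in the cGAS-KO interaction (0.0502) did not.

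Of the 10 genes, the number called moved from 6 to 3 (only the libraries compared) and 2 (identity scaling) for STING-KO at 14 days. Between the labelled knockouts it moved from 1 to 0 (only the libraries compared, identity scaling) and 2 (DESeq2) at 7 days, and from 4 to 7 (DESeq2) and 6 (no filter) at 14 days. In WT over time 7 became 6 with DESeq2's size factors, no filter or the stricter filter and 5 with identity scaling, and in cGAS-KO over time 4 became 3 with no filter. Identity scaling gave 5 in place of 6 for cGAS-KO at 7 days and in the STING-KO interaction, 8 in place of 7 over time in STING-KO, where Slc1a3 passed (adjusted p = 0.0211), and 5 in place of 4 in the cGAS-KO interaction, where Gjb6 passed (0.0454, and 0.0342 with DESeq2). DESeq2 gave 7 in place of 6 for cGAS-KO at 7 days, with Gjb6 (0.0454). Leaving out 1 library gave 2 to 6 and 2 to 5 at 7 days for cGAS-KO and STING-KO, 0 and 1 to 5 at 14 days, 0 to 2 and 3 to 5 between the labelled knockouts, 5 to 6, 1 to 4 and 6 to 7 over time in WT, cGAS-KO and STING-KO, and 1 to 4 and 4 to 6 for the cGAS-KO and STING-KO interactions.

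Of all genes, 6 were called for cGAS-KO at 14 days, 29 with no filter, 16 with only the libraries compared, 11 with identity scaling and 151 with DESeq2 (0 to 17 with 1 library left out). For STING-KO at 14 days 6717 became 4221 with only the libraries compared (from 4261 with 1 left out, the first WT). Between the labelled knockouts at 7 days 32 became 60 with no filter, 6 with the legacy fit, 3 with only the libraries compared, 10 in the fit without 2 groups and 263 with DESeq2 (0 to 213 with 1 left out); at 14 days 7112 became 4499 with only the libraries compared (from 4654 with 1 left out). Over time 8693 in WT came to 5569 without the second 7-day library, and 6022 in cGAS-KO to 2967 and 3426 without the first 7-day or 14-day library.

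Signs turned only for values not called in the reported fit. Gjb6 for STING-KO at 7 days (0) was at -0.03 with DESeq2 and with its size factors, -0.04 with no filter, -0.05 with the stricter filter and -0.06 with identity scaling. Glul between the labelled knockouts at 7 days was at 0 in 4 settings, and in WT over time at -0.01 in 4, -0.02 with no filter and -0.44 with identity scaling. Aldoc in the STING-KO interaction was at -0.03 with only the libraries compared. Identity scaling also turned Gja1 for cGAS-KO at 14 days (0.04), Aldoc for STING-KO at 14 days (0.28), Slc1a2 (0.25) and Aldh1l1 (0.14) between the labelled knockouts at 7 days, Slc1a3 (-0.04) and Gjb6 (-0.15) at 14 days, Gjb6 (-0.30) and Aldh1l1 (-0.05) over time in WT, Gja1 (-0.16), Aldh1l1 (-0.48) and Aldoc (-0.37) over time in cGAS-KO, and Slc1a3 in the STING-KO interaction (0.15). With 1 library left out the sign of further values varied. In cGAS-KO against WT at 7 days they ran -0.12 to 0.18 for Slc1a3, -0.01 to 0.18 for Glul and -0.13 to 0.4 for S100b. In STING-KO against WT at 7 days they ran -1.08 to 0.21 for Slc1a3, -0.15 to 0.06 for Gjb6 and -0.01 to 0.16 for Glul. In cGAS-KO against WT at 14 days they ran -0.3 to 0.16 for Gja1. In cGAS-KO against STING-KO at 7 days they ran -0.3 to 0.26 for Slc1a2, -0.27 to 1.16 for Slc1a3, -0.14 to 0.54 for Gja1, -0.08 to 0.08 for Glul and -0.46 to 0.23 for Aldh1l1. In cGAS-KO against STING-KO at 14 days they ran -0.1 to 0.56 for Gjb6 and -0.21 to 0.09 for Slc6a11. Over time in WT they ran -0.11 to 0.3 for Gjb6 and -0.09 to 0.08 for Glul. Over time in cGAS-KO they ran -0.15 to 0.26 for Aldh1l1, -0.03 to 0.34 for Aldoc and -0.31 to 0.03 for Slc6a11. Over time in STING-KO they ran -0.48 to 0.19 for Gja1. In the cGAS-KO interaction they ran -0.16 to 0.39 for S100b. In the STING-KO interaction they ran -0.9 to 0.39 for Slc1a3 and -0.14 to 0.23 for Aldoc.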
